A study of Mus musculus with 18 samples.

Results

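Genes that mark the main branches of the blood lineage were examined as loci of a cell lineage other than embryonic stem cells. They were 9 in all: Ptprc, Cd3e, Cd4, Cd8a, Cd79a, Itgam, Spi1, Gata1 and Hbb-bs. They were taken by name, and each locus was the gene body with 50 kb on either side of its annotated GRCm38 ends. The 9 loci held 115 of the 165744 ATAC-seq peaks on assembled chromosomes, and the 9 genes stand among 21774 protein-coding genes. ATAC-seq marks open chromatin by inserting adapters with a transposase. The libraries came from the mouse embryonic stem cell line dTKO, whose labelled genotype is Suv39h1fl/fl, Suv39h2-/- and Setdb1fl/fl, so every library shares the loss of Suv39h2. All 18 libraries carry the label of auxin (100 µg/ml) and dTAG13 (0.5 µM), agents that trigger degradation of suitably tagged proteins, and 3 biological repeats were collected at each of 0, 3, 6, 12, 24 and 48 h, with 0 h as the baseline. The labels do not state whether the line is a single clone or which proteins carry a tag.

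The values are positions in 1 list of peaks merged over all libraries. The list gives no library, read count or height, so the depth is unknown, a peak may come from any time point, and gains after 0 h were not analysed here. Replicate error is therefore not known for any value. Shares carry 95% Wilson intervals, taken over genes or peaks, which cover counting error only. Markers of the labelled cell type were open: at all 20 genes of a pluripotency list, among them Pou5f1, Nanog and Sox2, a peak overlapped the 500 bp around an annotated end. Of 15 fibroblast genes, markers of another cell type that a culture could hold, 9 had one (60.0%, 35.8 to 80.2), an interval that holds the 71.4% of all protein-coding genes. Merged peaks over a blood gene do not measure its RNA.

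Blood cells arise from progenitors whose fates are set by transcription factors such as PU.1, encoded by Spi1, for myeloid and B cells, and GATA1 for red cells and megakaryocytes. Mature cells are told apart by surface proteins: CD45 (Ptprc) on nearly all leukocytes, the CD3 chain Cd3e and the coreceptors Cd4 and Cd8a on T cells, the antigen receptor chain Cd79a on B cells, and the integrin CD11b (Itgam) on myeloid cells. Hbb-bs encodes an adult beta-globin chain of haemoglobin. In embryonic stem cells these genes are typically silent.

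The bases before the starts of transcription are shown first, since the loci differed in whether a peak lay there. RefSeq promoter windows of GRCm38.p6 were matched for 7 of the 9 genes, not for Cd4 and Spi1, and gave 8 starts, since Ptprc has a pair. In 3 of the 7 genes a peak covered the start. The bases before those 3 starts read 5′ to 3′ as follows. Capitals mark matches, on either strand, to any of 6 short motifs: AGATAA of GATA factors, GAGGAA as the core of PU.1 sites, GGGCGG as the GC box, TATAAA as the TATA box, the CCAAT box and the E-box CANNTG.
Cd3e (chr9:45009664-45009861, minus strand): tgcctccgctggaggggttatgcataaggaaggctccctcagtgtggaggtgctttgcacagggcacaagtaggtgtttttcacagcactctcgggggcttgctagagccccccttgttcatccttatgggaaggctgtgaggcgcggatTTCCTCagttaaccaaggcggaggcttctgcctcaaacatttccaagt
Cd79a (chr7:24897247-24897496, plus strand): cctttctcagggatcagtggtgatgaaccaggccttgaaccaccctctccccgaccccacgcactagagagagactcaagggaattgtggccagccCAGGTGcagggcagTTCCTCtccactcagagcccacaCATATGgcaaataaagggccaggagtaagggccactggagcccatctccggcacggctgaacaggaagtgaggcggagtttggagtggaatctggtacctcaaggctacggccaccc
Gata1 (chrX:7967911-7968160, minus strand): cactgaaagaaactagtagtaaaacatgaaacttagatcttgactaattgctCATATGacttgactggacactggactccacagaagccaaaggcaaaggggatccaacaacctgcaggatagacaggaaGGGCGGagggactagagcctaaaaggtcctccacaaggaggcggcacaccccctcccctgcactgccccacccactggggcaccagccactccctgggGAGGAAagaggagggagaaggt
The peak covered all 198 printed bases at Cd3e, all 250 at Cd79a and the 105 bases next to the start at Gata1. A longer RefSeq model of Cd3e begins 52 bp further upstream, so its stretch stops there. At the following 3 genes no peak lay within 500 bp of the start.
Cd8a (chr6:71373177-71373426, plus strand): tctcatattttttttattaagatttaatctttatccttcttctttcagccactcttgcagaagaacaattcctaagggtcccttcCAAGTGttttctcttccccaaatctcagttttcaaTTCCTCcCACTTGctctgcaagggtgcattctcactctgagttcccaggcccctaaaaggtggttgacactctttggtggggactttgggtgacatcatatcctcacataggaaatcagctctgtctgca
Itgam (chr7:128062390-128062639, plus strand): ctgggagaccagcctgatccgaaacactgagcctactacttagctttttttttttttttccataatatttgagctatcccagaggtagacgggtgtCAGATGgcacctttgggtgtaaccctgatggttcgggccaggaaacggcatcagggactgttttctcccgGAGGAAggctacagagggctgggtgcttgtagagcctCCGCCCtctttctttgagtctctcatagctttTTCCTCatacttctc
Hbb-bs (chr7:103827929-103828178, minus strand): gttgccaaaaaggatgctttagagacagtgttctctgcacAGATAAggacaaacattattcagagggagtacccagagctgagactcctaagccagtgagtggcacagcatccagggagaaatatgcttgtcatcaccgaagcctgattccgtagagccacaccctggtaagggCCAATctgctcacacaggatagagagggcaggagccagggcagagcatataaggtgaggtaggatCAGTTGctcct
Over the 250 bases before each start, GAGGAA was found at 6 of the 8 starts, all but the Hbb-bs start and 1 Ptprc start, and at 23.3% of all 32851 promoter windows. It was thus present before open starts (Cd3e, Cd79a, Gata1) and before starts with no peak (Cd8a, Itgam) alike. The E-box was found at 7 starts and at 66.2% of all windows. At Cd3e the E-box ran past the end of the printed stretch and is not in capitals. AGATAA was found at Hbb-bs and 1 Ptprc start (10.0% of all windows), GGGCGG at Itgam and Gata1 (32.7%), CCAAT at Hbb-bs alone (33.9%) and TATAAA at 1 Ptprc start (12.4%). A match is a string of letters and was not tested as a binding site.

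At either annotated end, 5 of the 9 genes had a peak within 500 bp (55.6%, 26.7 to 81.1): Cd3e, Cd4, Cd79a, Itgam and Spi1. The background was 71.4% of protein-coding genes, which lies inside that interval, so a lower share is not shown with 9 genes. Ptprc, Cd8a, Gata1 and Hbb-bs had none. At RefSeq starts the count was 3 of 7 genes (42.9%, 15.8 to 75.0), namely Cd3e, Cd79a and Gata1, against 70.9% of protein-coding genes with such a start. Cd3e and Cd79a were counted under both definitions. Itgam had its peak at an end that is not its start, Gata1 had its start inside the annotated span, and Cd4 and Spi1 had no matched start to count.

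**Figure D1:**
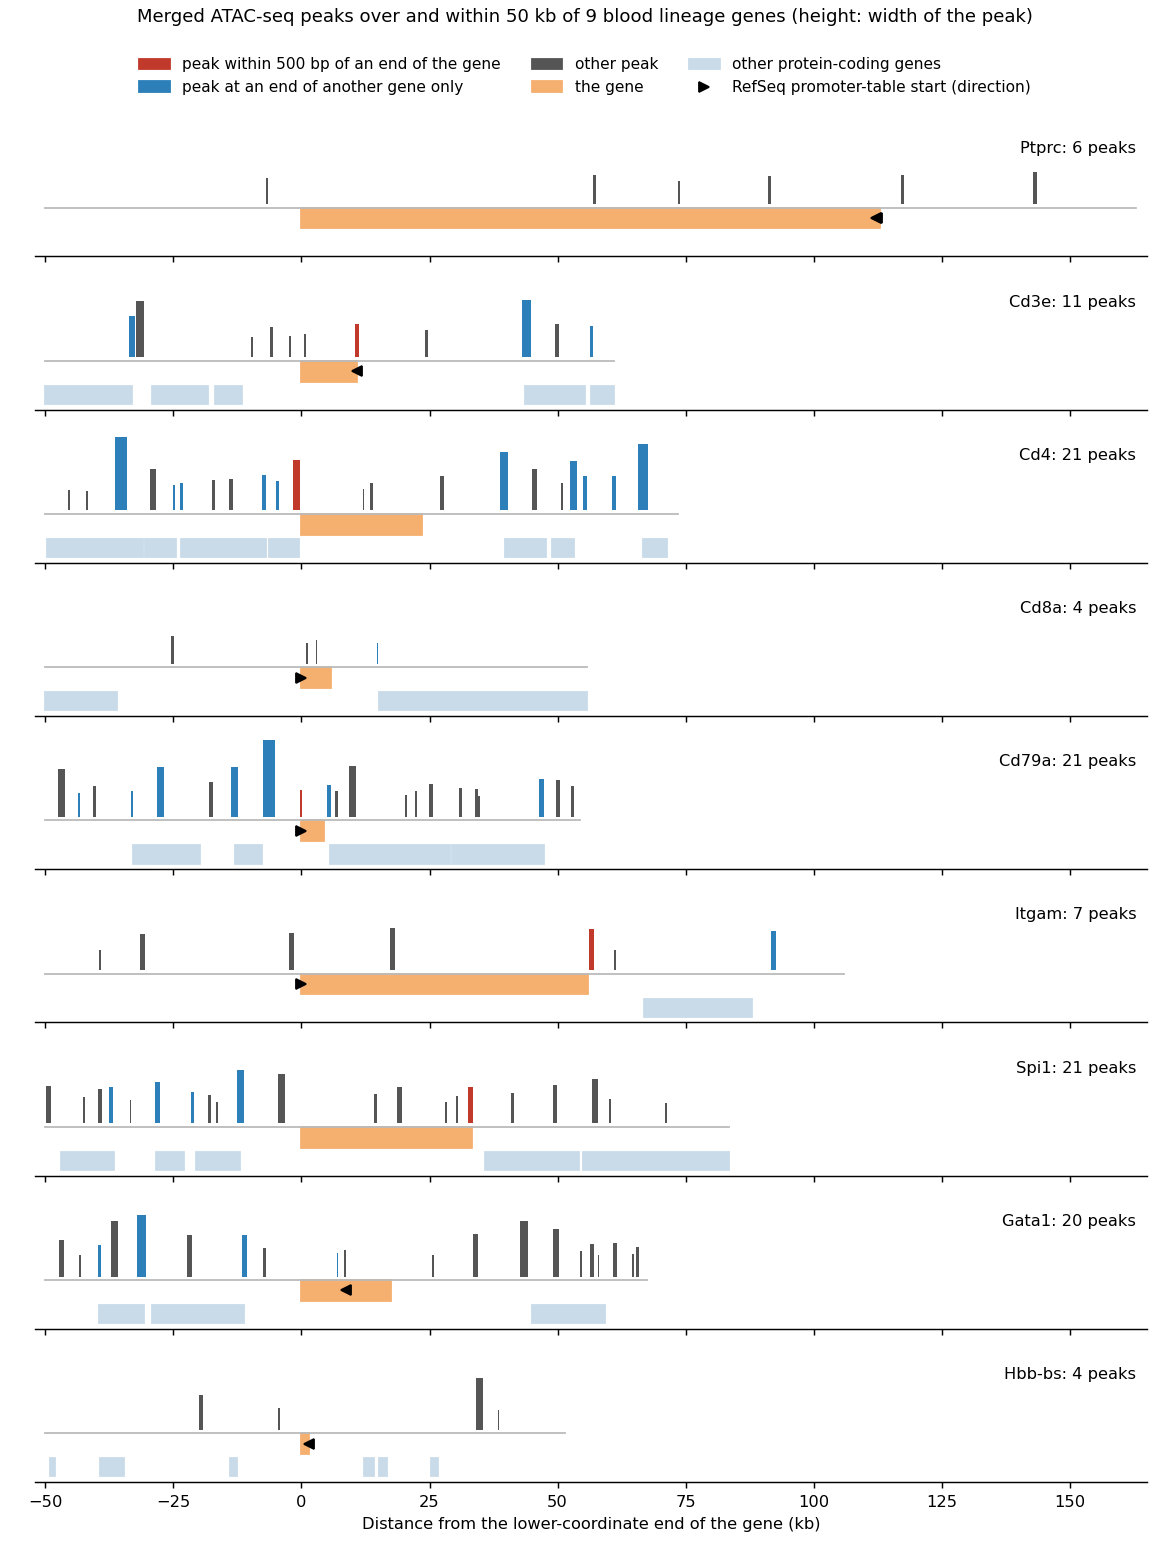
Maps of the 9 loci, with distance from the lower-coordinate end of each gene in kb on the horizontal axis, peaks as upright boxes whose height grows with their width in bp, the gene in orange and other protein-coding genes in pale blue. The loci of 4 genes (Ptprc, Cd8a, Itgam, Hbb-bs) hold 4 to 7 peaks and the other 5 hold 11 to 21, many of them blue, at an end of another gene.

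Among T cell genes, Cd3e, a signalling chain of the T cell receptor complex (chromosome 9, 44998735 to 45009663), had a peak of 735 bp over its start, at 45009187 to 45009921. It reached 310 bp upstream and 424 bp downstream of the start. A second body peak, 352 bp wide, lay 503 bp inside the other end, just outside the window. The neighbouring CD3 chain genes Cd3d and Cd3g had no peak over their bodies, and the distance from an end to the closest peak was 1.82 and 1.57 kb. Open chromatin in this gene cluster was thus called at the start of Cd3e and at neither end of Cd3d or Cd3g.

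Cd8a, the alpha chain of the CD8 coreceptor (chromosome 6, 71373427 to 71379171), had no peak at an end but held a pair of narrow peaks inside the gene. They were 268 and 348 bp wide and lay 0.887 and 2.75 kb downstream of the start. Only 2 other peaks lay within 50 kb, a 528 bp peak 25.0 kb upstream and a 242 bp peak within 500 bp of an end of Rmnd5a. Cd8b1, which encodes the partner chain, had no body peak, and its nearest peak was 9.76 kb from an end.

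Cd4, the coreceptor of helper T cells (chromosome 6, 124864693 to 124888247), lay among many peaks. The peak counted at its end was 1362 bp wide, at 124863067 to 124864428, and stopped 265 bp below the gene. The same peak lay at an end of Gpr162, so it belongs to either gene or both. Inside Cd4 there were 2 peaks, of 293 and 522 bp. Of the 21 peaks of the locus, 11 lay at an end of another gene, including a 2220 bp peak shared by Usp5 and Cdca3, a 1959 bp peak at Mlf2 and a 1649 bp peak at Lag3, an inhibitory receptor gene of T cells. The 3 widest peaks of the Cd4 locus were therefore those of its neighbours.

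Cd79a, the Ig-alpha chain of the B cell antigen receptor (chromosome 7, 24897497 to 24901858), had a peak of 475 bp over its start, at 24897175 to 24897649. It extended 322 bp upstream and 152 bp downstream. This was the only peak over the gene, and 7 of the 21 peaks of the locus lay at ends of other genes. The widest, 2362 bp, lay at Rps19, a ribosomal protein gene.

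Ptprc, the phosphatase CD45 (chromosome 1, 138062859 to 138175756), had neither start nor end open. Its starts lay 4.62 and 4.80 kb from the nearest peak, which was 566 bp wide and upstream. The body of 113 kb held 3 peaks of 356 to 546 bp, and no other protein-coding gene had an end in the locus. Itgam, the alpha chain of the myeloid integrin (chromosome 7, 128062640 to 128118491), had its nearest upstream peak 1.51 kb before the start. The peak that counted lay 0.323 kb beyond its other, downstream end and was 1006 bp wide. A single peak, of 1064 bp, lay inside the gene, 17.2 kb from the start. The open end of Itgam was therefore not its start.

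Spi1 (chromosome 2, 91082374 to 91115759) had a peak of 842 bp over its higher-coordinate end, at 91114982 to 91115823, and 5 peaks over its body, the most of the 9 genes. The other 4 were 291 to 821 bp wide and lay well inside the annotated span. No peak lay within 500 bp of the lower-coordinate end, where the nearest was 3.16 kb away and 1335 bp wide. Which of its ends is the start was not taken from the tables used here.

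Gata1 (chromosome X, 7959260 to 7976663) showed how the choice of end matters. Neither annotated end had a peak within 500 bp, the nearest being 6.86 and 8.07 kb away. The RefSeq promoter window instead places a start inside the annotated span, 8.75 kb from its upstream end, and a 455 bp peak at 7967561 to 7968015 covered it. A further peak of 349 bp lay inside the gene at 7966121 to 7966469, at an end of the long noncoding RNA gene Gm52419. An upstream enhancer of Gata1 is known in red cell precursors. No peak was called 2 to 5 kb upstream of the start, where 26.2% of protein-coding starts had one. The widest peak of the locus, 1783 bp, lay at an end of Eras, a Ras gene known for its expression in embryonic stem cells.

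Hbb-bs (chromosome 7, 103826523 to 103827928) was the only 1 of the 9 genes with no peak over its body. Across protein-coding genes 81.6% had a body peak, but among 2882 genes of similar length (from 0.5 to 2 times that of Hbb-bs) the share was 35.2%. The nearest peak, 275 bp wide, lay 4.35 kb from the gene on its downstream side. Upstream, a 1425 bp peak lay 32.6 kb from the start, at 103860515 to 103861939, and a 227 bp peak 36.9 kb from it. The wide peak lay between Hbb-y, the embryonic beta-like globin gene, and Olfr66, at 7.31 and 19.4 kb. It touched no gene end. The locus control region of the beta-globin genes lies on that side of Hbb-y, and whether the peak falls on 1 of its elements was not examined. Hbb-bs and Hbb-bt are near-identical, so reads there may not be placed and the lack of a peak is uncertain.

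Open ends and starts of the 9 genes carried peaks narrower than the median of protein-coding ends, except at Cd4. The peaks at Cd79a (475 bp), Cd3e (735 bp), Spi1 (842 bp), Itgam (1006 bp) and Cd4 (1362 bp) had a median of 842 bp, against 1326 bp for the widest end peak of all 15550 protein-coding genes that had one. Of those genes, 4.48% had a narrower peak than Cd79a, 10.7% a narrower one than Cd3e and 53.0% a narrower one than Cd4. The Cd4 peak covered an end of Gpr162 and not that of Cd4. The Gata1 start peak, at 455 bp, was wider than those of 4.08% of the 15550 genes. In the lists counted below, median widths were 711 bp for further blood genes that are not transcription factors and 980 bp for fibroblast genes. For blood transcription factor, endoderm, neural and pluripotency genes they were 1246, 1346, 1464 and 1632 bp. A narrow median was thus not particular to the 9 genes, and no background matched for CpG content was set beside the widths. Inside the 9 genes the 18 body peaks had a median width of 486 bp, and 4 of them were wider than the median of all peaks, 578 bp.

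The loci differed widely in their number of peaks. Ptprc, Cd8a, Itgam and Hbb-bs had 6, 4, 7 and 4 peaks, whereas Cd3e, Gata1, Cd4, Cd79a and Spi1 had 11, 20, 21, 21 and 21. For all protein-coding genes the median was 14. Per 100 kb of locus, values ran from 2.82 at Ptprc, above 10.5% of protein-coding genes, to 20.1 at Cd79a, above 91.9%, and the median of the 9 was 9.92 against 10.6 over all protein-coding genes. Cd3e, at 9.92, and the 4 loci with 4 to 7 peaks lay below that median. The 5 loci with 11 or more peaks held 8 to 16 ends of other protein-coding genes each. Of the other 4, Ptprc had 0 such ends and Cd8a and Itgam 2 each, while Hbb-bs had 12, those of globin and olfactory receptor genes. Genes with a similar number of neighbouring ends (within 2) had a median of 18 peaks beside the 4 of Hbb-bs, 12 beside the 4 of Cd8a and the 7 of Itgam, and 11 beside the 6 of Ptprc. For Cd4, Cd79a, Spi1 and Gata1 those medians were 19, 17, 17 and 16, each below the locus's own count. Cd3e, with 11 peaks, stood below its median of 16.

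**Figure D2:**
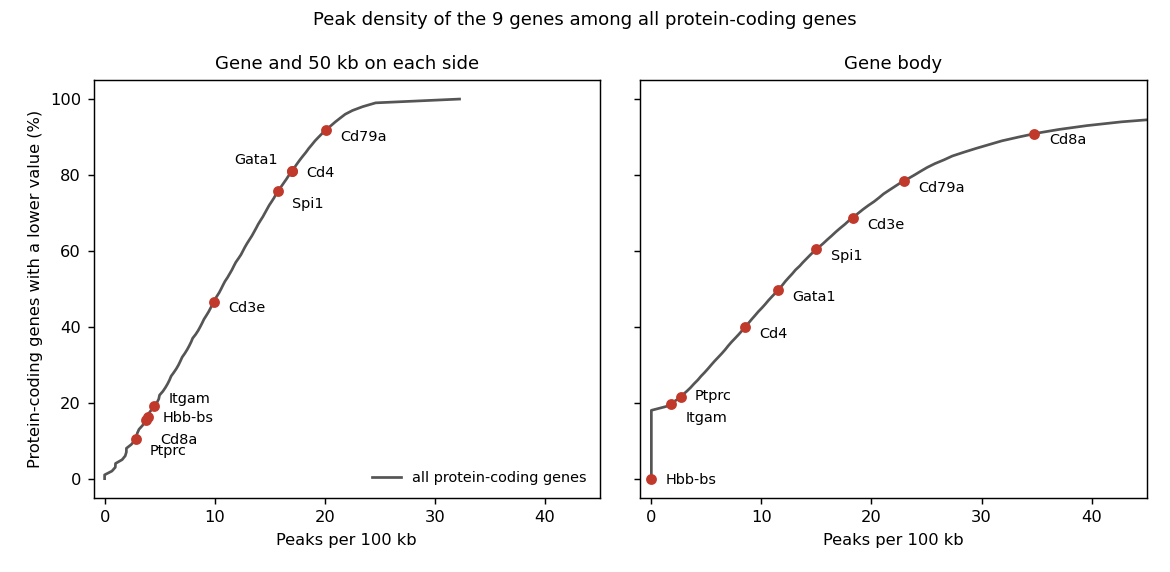
Peaks per 100 kb (horizontal axis) in the locus with 50 kb flanks (left) and in the gene body (right), with the percentage of protein-coding genes that have a lower value on the vertical axis; the grey line is all protein-coding genes and red points are the 9 genes. In the left panel 4 genes lie at 4.49 or below and Cd79a reaches 20.1.

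Within gene bodies the median density was 11.5 peaks per 100 kb in the 9 genes and 11.6 over all protein-coding genes. It ran from 0 at Hbb-bs and 1.79 at Itgam to 34.8 at Cd8a, a gene of 5.75 kb with 2 peaks. Cd8a thus had few peaks in its locus and the highest body density of the 9. Density in so short a gene rests on very few peaks.

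Of the 115 peaks, 31 (27.0%, 19.7 to 35.7) lay within 500 bp of an end of another gene. The background was 19.7% of all pairs of a protein-coding gene and a peak over or near it. That value lies at the lower bound of the interval, so a higher share is not shown. The pairs also count a peak once for each gene near it. Those 31 had a median width of 894 bp and the other 84 a median of 563 bp. In the 5 loci with 11 or more peaks 29 of 94 lay at another gene's end, and in the other 4 loci 2 of 21. Peaks at no gene end at all numbered 80. Peaks over 1000 bp numbered 29 (25.2%, against 20.6% of all peaks), of which 14 lay at another gene's end, 2 at an end of Itgam or Cd4, the Cd4 peak being among the 14, and 14 at no gene end.

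Further blood genes were counted by the kind of gene. In a list of 66 further blood genes, chosen by function, 32 had a peak at an end (48.5%, 36.9 to 60.3), against the 71.4% background. Transcription factor genes had one in 20 of 24 cases (83.3%, 64.2 to 93.3) and all other blood genes in 12 of 42 (28.6%, 17.2 to 43.6). At RefSeq starts the counts were 17 of 19 and 8 of 27. With windows of 500 bp the intervals of the groups do not overlap at ends or at starts. Genes are not independent replicates, however, and several lie in clusters. The pooling of all classes other than transcription factors was not planned, no difference was tested, and the gap was smaller with wider windows.

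Among the factors, Tal1, a regulator of blood stem cells, had an end peak of 1201 bp, Lmo2, its partner, 1 of 723 bp, and Gata2, a factor of early progenitors, 1 of 760 bp. Runx1, which drives the emergence of blood stem cells, had no peak at an annotated end but had 1 at a start. Klf1, the activator of adult beta-globin, and Cebpe, a factor of granulocytes, had none at an end. The closest peaks were 0.516 and 1.84 kb from an end. At Klf1 that peak lay inside the gene, just outside the window, and covered 43.6% of the body, whereas Cebpe had 0 body peaks. Foxp3, the factor of regulatory T cells, named after its value was seen, was the remaining factor without an end peak, at 4.56 kb.

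Each of the 5 classes of genes of mature cells had a share of open ends under the 71.4% of all protein-coding genes. T cell genes had an end peak in 2 of 10 cases, Cd247 and Lat, both genes of T cell receptor signalling. B cell genes had one in 2 of 7, Cd79b, the partner of Cd79a, and the kinase gene Blk, while Cd22 and Ms4a1 had nearest peaks 0.924 and 19.0 kb away. Myeloid genes had one in 4 of 10, among them the receptor gene Csf1r, Cd68 and the lysozyme gene Lyz2. Itgax, Itgb2 and Adgre1 had none, and Itgax, the neighbour of Itgam, had no body peak either. Megakaryocyte genes had one in 1 of 5, Gp9, with none at Itga2b, Pf4 and Gp1ba. Erythroid genes had one in 3 of 10, among them the alpha-globin genes Hba-a1 and Hba-a2. Intervals of the myeloid, erythroid, T, B and megakaryocyte classes ran up to 68.7, 60.3, 51.0, 64.1 and 62.5%.

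**Figure D3:**
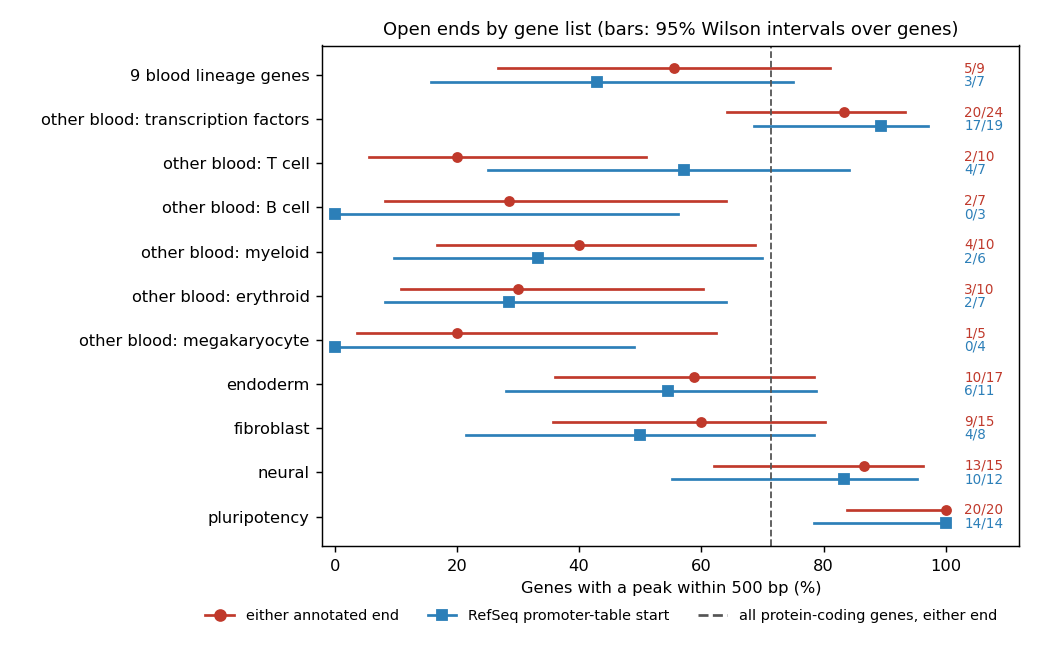
Percentage of genes with a peak in the 500 bp around an annotated end (red circles) or a RefSeq start (blue squares), by gene list, with 95% Wilson intervals as lines and counts at the right; the dashed line is the 71.4% of all protein-coding genes. Blood transcription factors stand at 20 of 24 and each other blood class at or below 4 of 10 for ends.

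Genes of other lineages were counted in the same way. Neural genes had an end peak in 13 of 15 cases (86.7%, 62.1 to 96.3), including Pax6, Sox1 and Nes but neither Gfap nor Dcx. Endoderm genes had one in 10 of 17 (58.8%, 36.0 to 78.4), with Sox17, Gata6 and Foxa2 open at an end and Gata4, Foxa1 and Hnf4a not. Both intervals hold the 71.4% background and overlap that of the 9 blood genes, 26.7 to 81.1%, and no difference between lists was tested.

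CpG content before the start was set beside the open starts. The ratio of observed to expected CpG over the 250 bases before a start compares CpG pairs with what the C and G content gives. Its median was 0.53 over 21263 protein-coding starts, 0.70 at those with a peak within 500 bp and 0.15 at those without. Of the 8 member starts 7 lay below 0.4, from 0 at Cd8a and 0.11 at Gata1 to 0.39 at Itgam. The exception was 1 Ptprc start at 0.65, where 4 CpG pairs fell in bases of 31.6% GC. Among protein-coding starts below 0.4, 32.7% had a peak, beside 3 of 7 member starts (42.9%) and 8 of 30 starts of blood genes that are not transcription factors (26.7%). No start of that group of 30 reached 0.4, whereas 24 of 28 transcription factor starts did. Of those 24, 21 were open (87.5%), beside 95.9% of protein-coding starts from 0.4 upward. Of the 4 transcription factor starts below 0.4, 1 was open (25.0%). The shares of the members and of the group of 30 thus lay on either side of the 32.7% at starts of like CpG content. In the lowest class, below 0.2, Gata1 had an open start and Cd8a and Hbb-bs had none, beside 20.3% of all protein-coding starts.

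**Figure D4:**
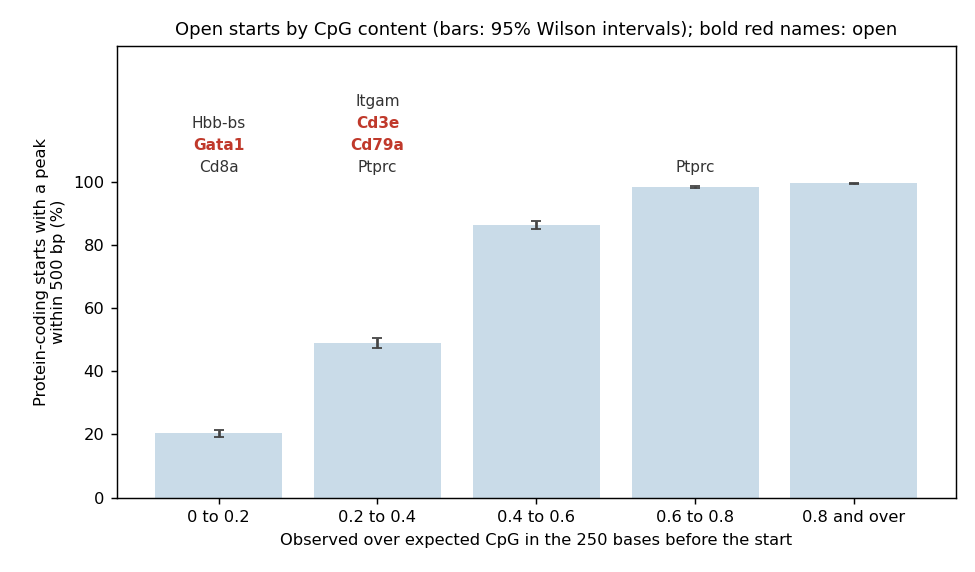
Percentage of protein-coding starts with a peak within 500 bp (bars, 95% Wilson intervals) by the ratio of observed to expected CpG before the start, with the member starts named above their class, in bold red where open. The share runs from 20.3% below 0.2 to 99.4% from 0.8, and 7 of the 8 member starts fall in the 2 lowest classes.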

How the data were processed

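The deposited file is a list of 166066 merged peak positions from 18 ATAC-seq libraries, without counts or scores, so the depth of each library and its precision are unknown, and the planned comparison of each time with 0 h was not run. Per the submitters' processing notes, Trimmomatic 0.36, Bowtie2 2.4.2, MACS2 2.2.7.1 and the builds mm10 and GRCm38 were used, with no role or order. How peaks were merged, the threshold, duplicate removal and the shift of insertions are not given in the sources used here; a threshold could change which narrow peaks exist. Starts were moved from 0-based to 1-based.

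Gene ends came from a RefSeq table of GRCm38.p6, leaving out 348 genes with scaffold coordinates, and starts and strand from RefSeq promoter sequences of the same build. A gene counted as open where a peak overlapped by at least 1 bp a window of 500 bp either side of an end or start. Shares were set beside all protein-coding genes, and no test was made. The members and lists were chosen with earlier results of these data known, and backgrounds of similar length, neighbouring ends or CpG content were added with the values in view. From each further blood class and comparison list, the first 3 genes in list order with a peak and the first 3 without may be named; 2 genes of the lists are counted but not reported by name here. Window overlaps were checked against bedtools on simulated peaks over 21774 genes, with 0 differences. Tables were handled with pandas 2.3.3 and numpy 2.4.6 in Python 3.11.15, intervals computed with scipy 1.17.1 and plots drawn with matplotlib 3.10.9.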

Additional observations from a re-analysis of the deposited data

How the results depend on the processing

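Of the 9 members, 3 had an open end with windows of 250 bp (Cd3e, Cd79a and Spi1, against 68.8% of protein-coding genes) and, among the 7 with a matched start, 3 had a peak there (against 70.9%). With windows of 2000 bp the count was 6 (against 79.7%), with an overlap of 200 bp 4 (against 69.4%), and with peaks wider than the median 4 (against 66.7%), the last without Cd79a. The 66 further blood genes rose from 32 to 49 with windows of 2000 bp, where the background was 79.7%. Klf1 and Cebpe were the only transcription factors gained there, and all other gains were genes of mature cells. The gap between factors and other blood genes was thus smaller than with windows of 500 bp, and its intervals were not computed. Every B cell gene but Ms4a1 had a peak at that setting, a share above the background. With starts alone, endoderm genes numbered 6 of 11 and fibroblast genes 4 of 8. The density of the 9 loci together, 9.87 peaks per 100 kb, was 5.49 with wide peaks alone and 8.81 to 10.5 with flanks of 25 and 100 kb. The share at another gene's end, 27.0%, was 42.6% with windows of 2000 bp and 37.5% with wide peaks alone. For this share and for the density, no background over all protein-coding genes was set beside these settings. The main backgrounds do not apply to them. Larger windows catch more peaks and wide peaks are fewer by construction, and starts alone leave fewer genes. No paired analysis was possible because the list carries no value per library, and for the same reason no replicate could be left out. The enhancer windows planned for Cd4 and Spi1 were not run, as no start was matched.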

Other observations

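Peaks at the globin genes other than Hbb-bs were as follows. Hba-a1 and Hba-a2, the adult alpha-globin genes on chromosome 11, each had a peak over the gene, of 539 and 513 bp, and each had one at its RefSeq start. Hbb-bt, Hbb-bh1 and Hbb-y, beta-like globin genes beside Hbb-bs, had none over their bodies, with nearest peaks 5.21, 17.4 and 7.31 kb from an end. Among protein-coding genes of 0.5 to 2 times the length of Hbb-bs, 35.2% had a body peak, so the lack of one is common in genes this short, and no difference between the globin families was tested. Ratios of observed to expected CpG before the starts were 0.22 at both alpha genes, 0 at Hbb-bt and 0.09 at Hbb-y. Both pairs of adult genes are near-identical copies, so peaks and their absence are uncertain there. Among T cell genes, Lck and Zap70, kinases of the T cell receptor pathway, were named after their values were seen. Each had no peak at an annotated end but had 1 at a RefSeq start. The count of 2 of 10 T cell genes at ends thus stood beside 4 of 7 at starts. At starts, B cell genes had 0 of 3, myeloid genes 2 of 6, erythroid genes 2 of 7 and megakaryocyte genes 0 of 4. Lyz2 and Gp9, each with an end peak, had none at a RefSeq start.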
